A study of Arabidopsis with 8 samples.

Results

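In 5-day-old Arabidopsis thaliana seedlings of the saur41/40/71/72 genotype, root libraries were set against shoot libraries, 2 of each. All genes with a mean of at least 1 FPKM in either tissue were compared, where FPKM is a fragment count scaled by gene length and by the mapped fragments of the library. A gene missing from a library's table was taken as 0. This rule kept 20036 of the 25397 genes listed in any of the series' 8 libraries. Of these, 16017 reached 1 FPKM in both tissues, 2874 only in root and 1145 only in shoot. For members that reached it in 1 tissue alone, the rule fixed which mean was higher and so favoured a call there. Their calls and levels are given as a description, and most lists below also have their counts among members at 1 FPKM or more in both tissues. The rule's edge fell in a dense range: 171 members had a higher mean between 1 and 1.1 FPKM, and 177 genes just missed it with 0.9 to 1 FPKM.

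The series holds 4 groups of 2 libraries: root of the quadruple mutant of the SAUR41 subfamily, shoot part of the same mutant, root of Col-0 wild type, and shoot part of Col-0. The labels give no treatment, and all 4 groups share the age of 5 days. They name neither the mutant alleles nor their insertion sites, and leave unsaid whether a group's libraries were grown separately. The p-values therefore measure only the spread between these libraries, which may be technical. Root and shoot are mixtures of cell types, and in such bulk RNA fewer cells of a type and less RNA per cell cannot be told apart.

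Roots and shoots divide the work of the seedling. The shoot part holds the green cotyledons, the hypocotyl and the shoot apex, where light is captured and carbon is fixed. The root takes up mineral ions through its hairs and outer layers, seals its inner tissues with Casparian strips and suberin, and grows from a meristem covered by a cap. SAUR proteins, named small auxin up RNAs, are short products of auxin-responsive genes, and several of them promote cell expansion.

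The mutated genes were examined first. SAUR41 (AT1G16510; TAIR10 chromosome 1, 5644572 to 5645443) stood at 7.75 and 7.097 FPKM in mutant root, against 1.09 and 0.845 FPKM in mutant shoot, which is 2.1 on the log2 scale (SE 0.17, limma adjusted p = 2.5e-05). SAUR72 (AT3G12830; chromosome 3, 4078651 to 4079608) had 16.9 and 16.3 FPKM in mutant root, against 4.18 and 3.96 FPKM in mutant shoot (change 1.79 on the log2 scale, SE 0.19, adjusted p = 0.00011). SAUR71 (AT1G56150; chromosome 1, 21017385 to 21017939) ran the other way, at 0.471 and 0.5795 FPKM in mutant root, against 3.28 and 3.02 FPKM in mutant shoot (change -1.45 on the log2 scale, SE 0.27, adjusted p = 0.0024). SAUR41 reached a mean of 1 FPKM in root alone and SAUR71 in shoot alone, so their calls are given as a description. For SAUR41, SAUR72 and SAUR71 root and shoot libraries did not overlap. The same held for most genes, with root above shoot for 72.5% of all tested and below it for 22.9%. The SAUR72 call ended after the rescaling described below (change 1.00, just under the threshold). SAUR40 (AT1G79130) was listed in 1 mutant root library only, at 0.073 FPKM, and in no mutant shoot library, and was not tested.

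Their levels did not separate the genotypes uniformly. SAUR41 had 7.75 and 7.097 FPKM in root labelled mutant, against 7.98 and 7.15 FPKM in Col-0 root. SAUR72 had 16.9 and 16.3 FPKM in root labelled mutant, against 23.4 and 31.6 FPKM in Col-0 root, and SAUR71 had 3.28 and 3.02 FPKM in shoot labelled mutant, against 7.91 and 5.22 FPKM in Col-0 shoot. Transcript from these genes was thus still counted, and with no insertion sites given the levels check nothing about the genotype. Below, mutant means the libraries so labelled.

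The labelled tissues were checked against marker lists. Of the 26 root hair genes all were listed in a mutant root library and 11 of the 26 were at 0 in both mutant shoots. So were 6 of 20 root tip genes, of which 1 was at 0 in both mutant roots, and 0 of 15 endodermal genes. The 28 photosystem and antenna genes summed to 0.0993% and 0.0973% of all FPKM in mutant root, against 15.8% and 15.0% in mutant shoot. Of the 19 stomatal lineage genes, 4 were at 0 in both mutant roots, among them the guard cell regulators FMA and MUTE. MUTE stayed below 1 FPKM in mutant shoot as well and was not tested. Of the 32 shoot meristem and leaf genes, 8 were at 0 in both mutant roots and 1 in both mutant shoots. Replicates correlated at r = 0.995 in root and 0.994 in shoot over the 20036 genes on the log2(FPKM + 1) scale, and root with shoot at 0.502 to 0.510.

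Root and shoot differed across most of the transcriptome. Changes below are root minus shoot on the log2(FPKM + 1) scale, which understates the change of low genes. A gene is called higher in a tissue at a limma adjusted p under 0.05 (Benjamini-Hochberg over 20036 genes) with a change of at least 1. By this rule 8369 genes (41.8%) were higher in mutant root and 2821 (14.1%) were higher in mutant shoot, 11190 (55.8%) in all. By the adjusted p alone 76.5% of genes differed. Root libraries lay above shoot libraries without overlap for 72.5% of genes and below them for 22.9%. Calls of at least 16-fold numbered 627 in root and 526 in shoot, and those of at least 64-fold 126 in root and 151 in shoot. Among members at 1 FPKM or more in both tissues, 6088 of 16017 (38.01%) were higher in root and 1848 (11.5%) in shoot. The counts given below for such members of a list are best read against these shares. In lists with few such members those counts cannot settle a direction.

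The excess of root calls moved with the scaling. The median gene stood 0.81 higher in mutant root, and 75.05% of all changes were positive. Shoot RNA was concentrated in few genes: the 10 most abundant took 3.62% and 3.48% of all FPKM in the mutant roots, against 13.6% and 12.9% in the mutant shoots. When libraries were rescaled by median ratios the median change was 0.06, and 3639 genes (18.2%) were higher in root against 4228 (21.1%) in shoot, 39.3% in all. All 3639 were among the root calls above, all 2821 shoot calls were kept, and no gene changed sides. Which scaling fits the RNA content of the cells was not tested, so list medians are best read against 0.81, and the lists below that lose calls under rescaling have their rescaled counts or the genes given. Among members, 3137 (15.7%) lie in a locus that the files merge with another gene, and strand use in counting is not given, so their reads can be shared.

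**Figure D1:**
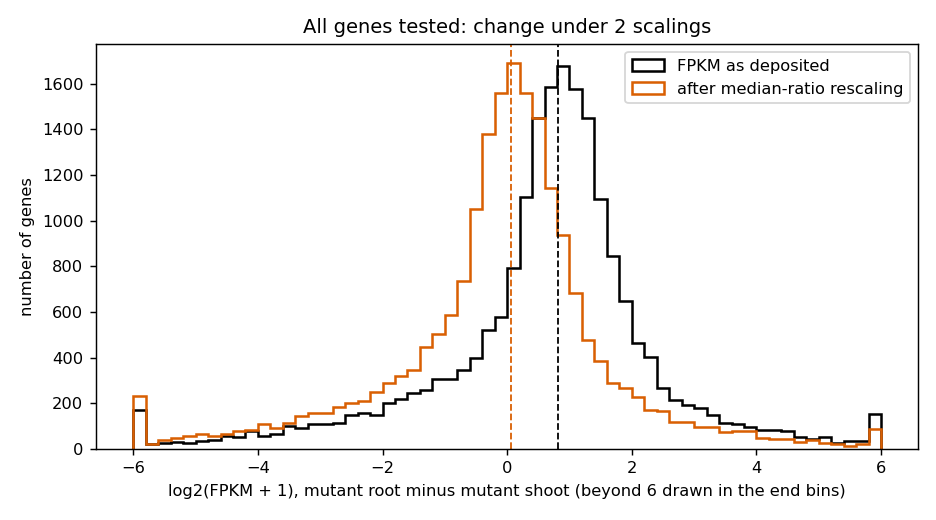
Number of genes (y axis) by change between mutant root and mutant shoot on the log2(FPKM + 1) scale (x axis), with FPKM as deposited (black) and after median-ratio rescaling (orange), dashed lines at the medians. The median is 0.81 as deposited and 0.06 after rescaling.

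The most abundant transcripts of each tissue were chosen after their values were seen. In root BGLU23, the beta-glucosidase PYK10 of ER bodies, led with 6164 and 5374 FPKM in mutant root, against 703 and 643 FPKM in mutant shoot, in a shared locus. EXT3, an extensin of the cell wall, followed with 3762 and 3587 FPKM in mutant root, against 8.68 and 6.52 FPKM in mutant shoot. In shoot, LHCB1.3, an antenna protein of photosystem II, had the highest level, with 60.7 and 58.9 FPKM in mutant root, against 16938 and 15861 FPKM in mutant shoot. The ribulose bisphosphate carboxylase small subunit gene RBCS1A had 14.7 and 15.3 FPKM in mutant root, against 12760 and 10960 FPKM in mutant shoot.

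The 12 largest changes toward root included genes of fatty acid oxidation and of the cell wall, and 3 of the major latex protein family. DOX1 (AT3G01420; chromosome 3, 159466 to 162837), an alpha-dioxygenase of fatty acids, had 1448 and 1327 FPKM in mutant root, against 0.301 and 0.291 FPKM in mutant shoot, which is 10.06 on the log2 scale (SE 0.14, limma adjusted p = 1.4e-07). ATGRP9 (AT2G05440; chromosome 2, 1993082 to 1994166), a glycine-rich protein gene, had 559.7 and 734 FPKM in mutant root, against 0.143 and 0 FPKM in mutant shoot (log2 change 9.23, SE 0.26). For both genes every root library lay far above every shoot library, with the shoots near or at 0. EXT3 (AT1G21310; chromosome 1, 7453236 to 7455009) changed by 8.75 (SE 0.25, adjusted p = 2.9e-07). FLS5, a member of the flavonol synthase family, stood at 452 and 410.3 FPKM in mutant root, against 0.446 and 0.213 FPKM in mutant shoot (log2 change 8.35).

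MLP328, MLP329 and MLP34 of the major latex protein family rose together. MLP34 had 809.5 and 697 FPKM in mutant root, against 1.86 and 1.02 FPKM in mutant shoot (log2 change 8.29, SE 0.31). MLP329 had 372 and 312 FPKM in mutant root, against 0.0984 and 0.0326 FPKM in mutant shoot, and its tandem neighbour MLP328 had 362 and 288 FPKM in mutant root, against 0.0294 and 0.0289 FPKM in mutant shoot. These neighbours are similar in sequence, so how fragments were divided between them is uncertain. AT4G16260, AT4G38080, AT3G28550, AT3G62040 and AT1G18980 completed the 12 largest root changes, between 8.03 (AT1G18980) and 8.22 (AT4G16260). AT3G62040 shares its merged locus with another gene.

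Of the 12 largest changes toward shoot, all but TGG1, a myrosinase, and AT2G10940 were of genes of light capture, carbon fixation or photorespiration. RBCS3B (AT5G38410; chromosome 5, 15377173 to 15378416) had 0.599 and 1.798 FPKM in mutant root, against 12472 and 10673 FPKM in mutant shoot, which is -12.41 on the log2 scale (SE 0.28, limma adjusted p = 1.9e-07). CAB2 (AT1G29920; chromosome 1, 10474784 to 10475959), a chlorophyll a/b binding protein, had 0.532 and 1.56 FPKM in mutant root, against 5783 and 5546 FPKM in mutant shoot (log2 change -11.48, SE 0.29). BCA1 (AT3G01500; chromosome 3, 194724 to 198019), a carbonic anhydrase, had 0.295 and 0.479 FPKM in mutant root, against 3637 and 3256 FPKM in mutant shoot (log2 change -11.28, SE 0.23). Root libraries held at most 1.798 FPKM of each of the 12 and shoot libraries at least 987 FPKM. The other 9 were CAB3, LHB1B1, RBCS2B, LHCB2.2, RBCS1B, AT2G10940, TGG1, BCA2 and GOX1, with changes from -11.42 for CAB3 to -9.56 for GOX1. Small subunit and antenna genes are near-identical copies in tandem, so the split of reads among them is uncertain.

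**Figure D2:**
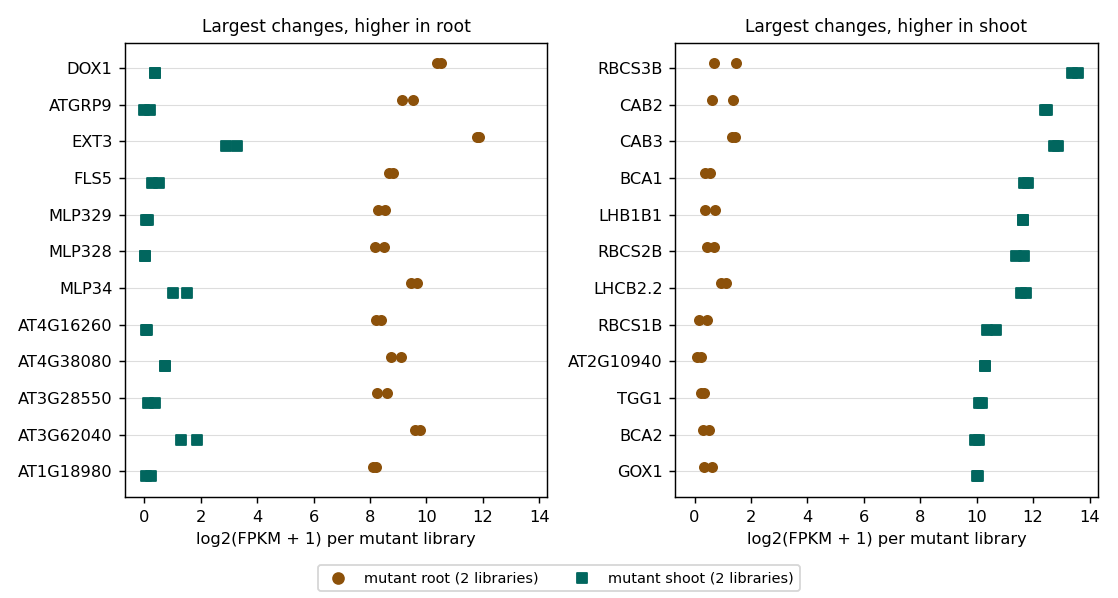
Level of the 12 genes with the largest changes in each direction (log2(FPKM + 1), x axis), 1 point per library, mutant root as brown circles above mutant shoot as green squares. Separation of root from shoot libraries was a condition for choosing all 24 genes.

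Photosynthesis genes were higher in shoot, though 1 of them was not called. Of 28 photosystem and antenna genes none was called higher in root and 27 in shoot, with a median change of -7.07, and all 24 carbon fixation and photorespiration genes were higher in shoot, with a median of -7.18. Of the 24 carbon genes, 5 reached 1 FPKM in shoot alone, and of the 19 that did so in both tissues none was higher in root and 19 in shoot. PRK, the phosphoribulokinase that regenerates the carbon acceptor, had 0.864 and 0.928 FPKM in mutant root, against 1047 and 926 FPKM in mutant shoot. TKL1, a transketolase that also serves the pentose phosphate pathway, changed least of the carbon list and had 351 and 338 FPKM in mutant root, against 815 and 751 FPKM in mutant shoot (change -1.18 on the log2 scale, SE 0.12, limma adjusted p = 9.5e-05). Root kept a measurable level of several antenna genes, such as LHCA4 with 93.7 and 90.7 FPKM in mutant root, against 5085 and 4972 FPKM in mutant shoot.

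The gene not called in these lists, LHCB1.3, had the highest level of all in shoot. Its change was -8.07 with an SE of 3.91 and an adjusted p of 0.097, in a fit that shares its error over all 4 groups. It was not listed in Col-0 shoot replicate 1, while Col-0 shoot replicate 2 had 21258 FPKM. Without that Col-0 library the same change had an SE of 0.0684 and an adjusted p of 8.97e-12. A 0 there can be a failed estimate.

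Of 14 chlorophyll synthesis genes and regulators, 13 were tested and all 13 were higher in shoot, with a median change of -5.17. Of the 13 tested, 1 reached 1 FPKM in shoot alone, and of the 12 that did so in both tissues none was higher in root and 12 in shoot. PORC, a light-dependent protochlorophyllide oxidoreductase, had 1.05 and 1.94 FPKM in mutant root, against 219 and 215 FPKM in mutant shoot (change -6.47 on the log2 scale, SE 0.18, limma adjusted p = 2.9e-07). GLK1, a transcription factor that activates photosynthesis genes, had 0.105 and 0.132 FPKM in mutant root, against 72.7 and 73.8 FPKM in mutant shoot, and its paralog GLK2 had 5.77 and 5.87 FPKM in mutant root, against 72.9 and 70.5 FPKM in mutant shoot (log2 changes -6.05 and -3.41). The seedling reductase gene PORA, known from etiolated tissue, stayed below 1 FPKM in all 4 mutant libraries. HEMA1, which opens tetrapyrrole synthesis, kept the highest root level of the list at 37.5 and 43.1 FPKM in mutant root, against 465 and 466 FPKM in mutant shoot.

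Genes of the plastid genome ran the same way: of its 73 genes tested none was higher in root and 71 in shoot, with a median change of -2.89. All 78 listed genes summed to only 49.0 and 63.6 FPKM in mutant root, and 18 were at 0 in both mutant roots. Members at 1 FPKM in shoot alone were not counted apart, so nothing is read from these counts. Plastid transcripts took 0.00749% and 0.00984% of FPKM in mutant root, against 1.05% and 1.84% in mutant shoot. Whether the libraries were selected for poly(A) RNA is not given in the sources used here, and how that would act on plastid RNA was not tested.

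Stomatal genes were mostly detected in shoot and low in root. Of 19 genes 18 were tested, none was higher in root and 16 in shoot (median change -2.16). Among those 18, 15 reached 1 FPKM in shoot alone, and of the 3 that did so in both tissues none was higher in root and 2 in shoot. ER, the receptor kinase ERECTA, had 0.731 and 0.806 FPKM in mutant root, against 47.7 and 48.4 FPKM in mutant shoot (change -4.79 on the log2 scale, SE 0.47, limma adjusted p = 9.1e-05). TMM, the receptor-like protein TOO MANY MOUTHS, had 0.155 and 0.217 FPKM in mutant root, against 15.5 and 11.1 FPKM in mutant shoot. The secreted peptide gene EPFL9, which promotes stomatal formation, had 9.08 and 8.99 FPKM in mutant shoot, and was at 0 in both mutant roots. The 2 not called were the kinase gene HT1 and FLP, a MYB factor that limits guard cell divisions, which had 7.39 and 8.68 FPKM in mutant root, against 6.26 and 6.88 FPKM in mutant shoot (log2 change 0.25, adjusted p = 0.51).

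Genes of the shoot meristem and leaf were called in both directions. Of 32 genes 26 were tested, with 4 higher in root and 12 in shoot (median -0.70), or 2 and 15 after rescaling. Here 1 reached 1 FPKM in root alone and 10 in shoot alone. Of the 15 that did so in both tissues 3 were higher in root and 4 in shoot, beside 38.01% and 11.5% of all such members. AFO, the YABBY factor FILAMENTOUS FLOWER that marks the lower leaf side, had 36.1 and 33.98 FPKM in mutant shoot, and was at 0 in both mutant roots. YAB3 had 0.0658 and 0 FPKM in mutant root, against 25.6 and 26.02 FPKM in mutant shoot, and TCP10, a TCP factor that restrains leaf cell division, had 1.15 and 1.05 FPKM in mutant root, against 28.4 and 26.7 FPKM in mutant shoot. STM, the homeobox gene of the shoot meristem, had 2.74 and 2.44 FPKM in mutant shoot, and was at 0 in both mutant roots. Of the stem cell genes, WUS reached 0.0198 FPKM in 1 mutant shoot library and CLV3 was at 0 in all 4.

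Of the 4 called toward root in this list, KNAT6, a KNOX homeobox gene, had 15.2 and 15.1 FPKM in mutant root, against 2.29 and 2.896 FPKM in mutant shoot (change 2.18 on the log2 scale, SE 0.15, limma adjusted p = 1.3e-05). GL3, a bHLH factor of epidermal patterning, had 2.18 and 2.66 FPKM in mutant root, against 0.196 and 0.24 FPKM in mutant shoot. AN3, a growth regulator of leaf cells, had 19.2 and 22.5 FPKM in mutant root, against 6.22 and 5.02 FPKM in mutant shoot. Neither AN3 nor REV was still called after rescaling. PHB, a factor of the upper leaf side, had 25.1 and 28.4 FPKM in mutant root, against 18.7 and 19.98 FPKM in mutant shoot (adjusted p = 0.14). Its relative PHV had 10.97 and 12.7 FPKM in mutant root, against 10.5 and 11.4 FPKM in mutant shoot, where the tissues overlapped (adjusted p = 0.73).

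Cuticle and shoot epidermis genes were higher in root for 3 of 27 tested and in shoot for 20 (median -2.47). In this list 1 reached 1 FPKM in root alone and 3 in shoot alone, and of the 23 that did so in both tissues 2 were higher in root and 17 in shoot. KCS6, the condensing enzyme of long cuticular waxes, had 4.31 and 4.53 FPKM in mutant root, against 150.1 and 135 FPKM in mutant shoot (change -4.72 on the log2 scale, SE 0.15, limma adjusted p = 3.3e-07). ATML1, the homeobox gene of the shoot epidermis, had 1.75 and 2.58 FPKM in mutant root, against 50.5 and 48.2 FPKM in mutant shoot. CER4, an alcohol-forming acyl reductase, ran against its list with 4.29 and 4.16 FPKM in mutant root, against 0.0901 and 0 FPKM in mutant shoot (log2 change 2.32). KCR1 and GPAT6 were also called in root, and both calls ended after rescaling.

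Suberin genes were called mostly the other way: 15 of 17 tested were higher in root and 1 in shoot (median 4.63), and the 15 root calls stood after rescaling. Of these genes 12 reached 1 FPKM in root alone, and of the 5 that did so in both tissues 3 were higher in root and 1 in shoot. CYP86A1, a fatty acid hydroxylase of suberin, had 120.3 and 106 FPKM in mutant root, against 0.185 and 0.0548 FPKM in mutant shoot (change 6.67 on the log2 scale, SE 0.16, limma adjusted p = 1.8e-07). ASFT, which attaches ferulate to suberin monomers, had 126 and 106 FPKM in mutant root, against 1.28 and 1.15 FPKM in mutant shoot. GPAT5, a glycerol phosphate acyltransferase, had 25.7 and 23.4 FPKM in mutant root and was at 0 in both mutant shoots. KCS20, an elongase shared with cuticular wax, was the shoot call at 48.8 and 50.9 FPKM in mutant root, against 104 and 114 FPKM in mutant shoot (log2 change -1.11). FAR1, a reductase that makes fatty alcohols, had 34.7 and 30.02 FPKM in mutant root, against 26.3 and 27.6 FPKM in mutant shoot (adjusted p = 0.45).

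Endodermal genes were higher in root for 14 of 15 tested, with a median of 3.73, and for 11 after rescaling, which ended the calls of GSO1, LOTR1 and SHR. Of the 15 tested, 7 reached 1 FPKM in root alone, and of the 8 that did so in both tissues 7 were higher in root and none in shoot. CASP1, a scaffold protein of the Casparian strip, had 131 and 119 FPKM in mutant root, against 1.495 and 1.25 FPKM in mutant shoot (change 5.73 on the log2 scale, SE 0.38, limma adjusted p = 1.2e-05), in a locus shared with another gene. CASP2 had 51.5 and 40.8 FPKM in mutant root, against 0.205 and 0.232 FPKM in mutant shoot. The receptor-like kinase gene SGN1 had 52.4 and 45.97 FPKM in mutant root, against 0.634 and 0.176 FPKM in mutant shoot. MYB36, the factor that turns on Casparian strip genes, had 16.9 and 16.6 FPKM in mutant root, against 0.207 and 0.492 FPKM in mutant shoot. SCR, a patterning factor that also acts in shoots, was not called at 20.5 and 20.7 FPKM in mutant root, against 17.05 and 16.4 FPKM in mutant shoot (log2 change 0.29, adjusted p = 0.24).

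Root hair genes were higher in root for 24 of 26 tested and in shoot for none (median 3.94), with 24 and 1 after rescaling. Among those 26, 22 reached 1 FPKM in root alone. Of the 4 that did so in both tissues 2 were higher in root and none in shoot. These 4 are too few to set against the 38.01% and 11.5% of all such members. PRP3, a proline-rich wall protein, had 80.01 and 79.7 FPKM in mutant root, against 0.09495 and 0.0899 FPKM in mutant shoot (change 6.21 on the log2 scale, SE 0.15, limma adjusted p = 1.9e-07). The peroxidase gene PER7 had 53.1 and 51.2 FPKM and the wall-loosening expansin gene EXPA7 had 24.3 and 23.8 FPKM in mutant root, and both were at 0 in both mutant shoots. RHD6, a bHLH factor that starts hairs, had 12.5 and 13.5 FPKM in mutant root, and RSL4, which extends them, had 6.395 and 6.76 FPKM, both at 0 in the mutant shoots. GL2, a homeobox gene that represses root hairs and promotes leaf hairs, had 4.48 and 4.45 FPKM in mutant root, against 5.75 and 5.74 FPKM in mutant shoot (log2 change -0.3, adjusted p = 0.082), and was the gene called in shoot after rescaling.

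Root tip genes were higher in root for 15 of 18 tested and in shoot for none (median 2.31), or 13 and 1 after rescaling, which ended the calls of WOX5 and FEZ. Here 14 reached 1 FPKM in root alone. Of the 4 that did so in both tissues 2 were higher in root and none in shoot, again too few to set against 38.01% and 11.5%. PIN2, the auxin exporter of the root tip, had 62.8 and 67.2 FPKM in mutant root, against 0.147 and 0.228 FPKM in mutant shoot (change 5.8 on the log2 scale, SE 0.14, limma adjusted p = 1.9e-07). The stem cell factor PLT1 had 5.89 and 5.71 FPKM and its relative PLT2 had 3.89 and 4.29 FPKM in mutant root, and both were at 0 in both mutant shoots. UPB1, a regulator of peroxidases at the transition zone, had 21.96 and 17.8 FPKM in mutant root, against 0.0461 and 0 FPKM in mutant shoot. ACR4, a receptor kinase of root cap and shoot epidermis, had 2.42 and 2.37 FPKM in mutant root, against 5.79 and 5.87 FPKM in mutant shoot (log2 change -1.01, adjusted p = 0.051), and was called in shoot after rescaling.

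Mineral uptake genes were higher in root for 28 of 30 tested and in shoot for none, with a median of 3.83, or 24 and 0 after rescaling, which ended the calls of AMT1;1, AMT2, ZIP1 and BOR1. In this list 16 reached 1 FPKM in root alone, and of the 14 that did so in both tissues 13 were higher in root and none in shoot. Together the 34 listed genes took 0.550% and 0.519% of all FPKM in mutant root, against 0.0319% and 0.0310% in mutant shoot. The phosphate transporter PHT1;1 (AT5G43350; chromosome 5, 17399789 to 17401949) had 382 and 337 FPKM in mutant root, against 0.63 and 0.5001 FPKM in mutant shoot (change 7.85 on the log2 scale, SE 0.15, limma adjusted p = 1.4e-07), though it is close in sequence to PHT1;2. The sulfate transporter SULTR1;2 had 388 and 357 FPKM in mutant root, against 0.878 and 0.6902 FPKM in mutant shoot. These carriers were near 0 in shoot.

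Nitrogen and iron carriers differed in how much transcript the shoot held. The nitrate transceptor NRT1.1 had 321 and 289.6 FPKM in mutant root, against 45.01 and 40.1 FPKM in mutant shoot. The ammonium carrier AMT1;1 had 90.8 and 85.6 FPKM in mutant root, against 27.8 and 31.4 FPKM in mutant shoot, in a shared locus. Its paralog AMT1;3 had 96.5 and 81.3 FPKM in mutant root, against 0.428 and 0.224 FPKM in mutant shoot. The iron transporter IRT1 had 16.02 and 17.6 FPKM in mutant root and was at 0 in both mutant shoots, and its regulator FIT1 had 37.4 and 32.9 FPKM in mutant root, against 0.338 and 0.239 FPKM in mutant shoot. The ferric reductase FRO2 had 3.05 and 2.67 FPKM in mutant root, against 1.14 and 1.05 FPKM in mutant shoot, and was not called (log2 change 0.88, adjusted p = 0.0044).

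Of 12 xylem loading genes 9 were higher in root and 1 in shoot (median 2.46), or 8 and 1 after rescaling, which ended the call of HMA2. Of these genes 4 reached 1 FPKM in root alone, and of the 8 that did so in both tissues 5 were higher in root and 1 in shoot. NRT1.5, which loads nitrate into the xylem, had 705 and 628 FPKM in mutant root, against 2.46 and 1.86 FPKM in mutant shoot (change 7.73 on the log2 scale, SE 0.18, limma adjusted p = 1.9e-07). PHO1, the phosphate exporter, had 230.3 and 226 FPKM in mutant root, against 10.1 and 8.19 FPKM in mutant shoot. The sulfate carrier SULTR2;1 was the shoot call, at 60.7 and 56.03 FPKM in mutant root, against 137 and 129.97 FPKM in mutant shoot (log2 change -1.18), while its relative SULTR3;5 had 68.5 and 63.5 FPKM in mutant root, against 4.62 and 4.18 FPKM in mutant shoot.

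The triterpene gene clusters, which make root metabolites such as thalianol and marneral, had little transcript in shoot. All 10 members tested reached 1 FPKM in root alone, so the rule fixed their direction, and nothing is read from their calls. The 12 listed genes took 0.0566% and 0.0542% of FPKM in mutant root, against 0.000062% and 0.000048% in mutant shoot. THAS1, the thalianol synthase, had 76.99 and 76.8 FPKM in mutant root, against 0.0812 and 0.0299 FPKM in mutant shoot. CYP705A5, a cytochrome P450 of the same cluster, had 136 and 127 FPKM in mutant root, against 0.0823 and 0 FPKM in mutant shoot. MRN1, the marneral synthase, had 8.58 and 8.31 FPKM in mutant root and was at 0 in both mutant shoots.

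**Figure D3:**
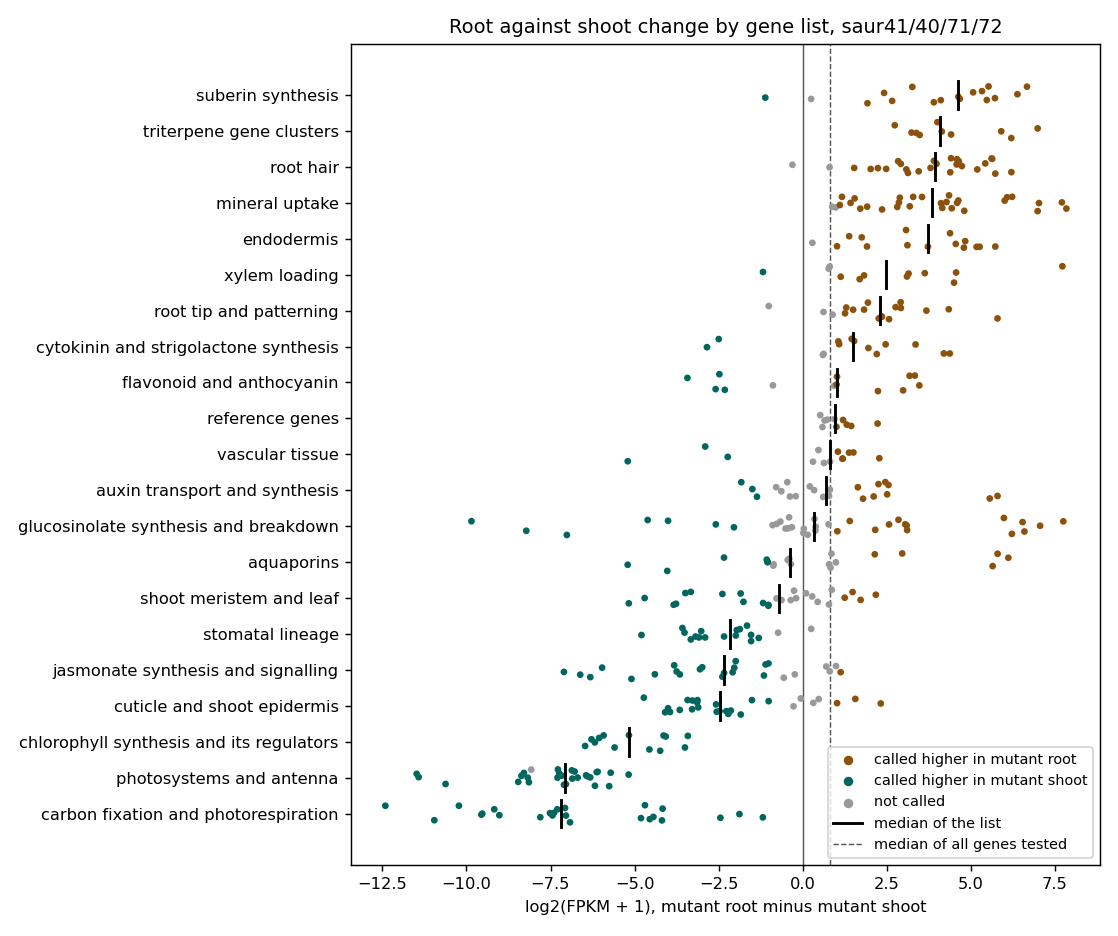
Change between mutant root and mutant shoot on the log2(FPKM + 1) scale (x axis) for each tested gene of 21 lists (rows, ordered by median), 1 point per gene, coloured by call, with black bars at the list medians and a dashed line at the median of all genes, 0.81. List medians run from 4.63 for suberin to -7.18 for carbon fixation.

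Glucosinolate genes, which make and activate the mustard oil defence of the cabbage family, included paralogs called in opposite organs. Of 35 tested 14 were higher in root and 7 in shoot, and after rescaling 12 were higher in root and 14 in shoot, with the median at 0.35 as deposited and at -0.53 rescaled. The deposited root share is near the 41.8% of all genes. Of the 35 tested, 7 reached 1 FPKM in root alone and 5 in shoot alone. Of the 23 that did so in both tissues 7 were higher in root and 2 in shoot, beside 38.01% and 11.5% of all such members. The classical myrosinase TGG1 (AT5G26000; chromosome 5, 9079505 to 9082384) had 0.179 and 0.275 FPKM in mutant root, against 1093 and 1171 FPKM in mutant shoot (change -9.85 on the log2 scale, SE 0.33, limma adjusted p = 5.0e-07), and TGG2 was at 0 in both mutant roots and had 302 and 293 FPKM in mutant shoot. The root myrosinase TGG4 had 79.4 and 78.3 FPKM in mutant root, against 0.126 and 0.0136 FPKM in mutant shoot, and TGG5 had 63.4 and 61.5 FPKM in mutant root and was at 0 in both mutant shoots. BGLU21, a relative of PYK10, had 265 and 262 FPKM in mutant root, against 0.3401 and 0.119 FPKM in mutant shoot. BGLU22, which resembles it closely, had 142 and 147 FPKM in mutant root, against 0.0689 and 0.106 FPKM in mutant shoot.

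The biosynthetic enzymes divided likewise. CYP79F1, which starts aliphatic glucosinolates of short and long chains, had 0.176 and 0.351 FPKM in mutant root, against 172 and 152 FPKM in mutant shoot (log2 change -7.01), whereas CYP79F2, its tandem copy for long chains, had 86.3 and 77.8 FPKM in mutant root, against 18.9 and 16.3 FPKM in mutant shoot (log2 change 2.16). The chain-elongating synthase MAM3 had 253 and 243 FPKM in mutant root, against 1.81 and 1.35 FPKM in mutant shoot, and its neighbour MAM1 had 53.4 and 47.3 FPKM in mutant root, against 209 and 211 FPKM in mutant shoot. MYB29, a factor of the aliphatic branch, was at 0 in both mutant roots and had 23.7 and 23.1 FPKM in mutant shoot. Of the indole modifiers, CYP81F4 had 829.6 and 744 FPKM in mutant root, against 7.83 and 7.07 FPKM in mutant shoot, in a locus shared with another gene. The indole entry enzyme CYP79B2 had 98.04 and 96.1 FPKM in mutant root, against 87.5 and 87.1 FPKM in mutant shoot (adjusted p = 0.24). Its paralog CYP79B3 had 98.95 and 86.7 FPKM in mutant root, against 112 and 119.6 FPKM in mutant shoot (adjusted p = 0.11), and was called in shoot after rescaling.

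Auxin carriers also had relatives on opposite sides. Of 22 auxin transport and synthesis genes tested 9 were higher in root and 3 in shoot, or 8 and 7 after rescaling, and the median of 0.70 became -0.14. The deposited counts are 40.9% and 13.6% of the list, close to the 41.8% and 14.1% of all genes. Among those 22, 4 reached 1 FPKM in root alone and 2 in shoot alone, and of the 16 that did so in both tissues 5 were higher in root and 2 in shoot. ABCB4, an auxin carrier of the root epidermis, had 109 and 116 FPKM in mutant root, against 1.29 and 1.505 FPKM in mutant shoot (change 5.57 on the log2 scale, SE 0.20, limma adjusted p = 6.8e-07). LAX3, an importer, had 57.5 and 56.3 FPKM in mutant root, against 8.94 and 9.33 FPKM in mutant shoot, and its relative LAX1 had 13.5 and 14.3 FPKM in mutant root, against 38.05 and 36.3 FPKM in mutant shoot. Among exporters, PIN4 had 13.95 and 15.7 FPKM in mutant root, against 45.1 and 42.2 FPKM in mutant shoot, and was higher in shoot (log2 change -1.5). PIN6 was too, with 0.1898 and 0.133 FPKM in mutant root, against 2.95 and 3.28 FPKM in mutant shoot (log2 change -1.82). PIN7 had 40.9 and 36.04 FPKM in mutant root, against 50.8 and 49.7 FPKM in mutant shoot (adjusted p = 0.08), and was called in shoot after rescaling, and the importer AUX1 had 79.2 and 83.4 FPKM in mutant root, against 64.9 and 63.02 FPKM in mutant shoot (adjusted p = 0.09).

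The YUC flavin monooxygenases, which complete auxin synthesis, were called in root or not at all with FPKM as deposited. YUC5 had 2.13 and 3.63 FPKM in mutant root, against 3.98 and 4.47 FPKM in mutant shoot (log2 change -0.46, limma adjusted p = 0.092). It was called in shoot after rescaling. YUC6 had 14.1 and 12.8 FPKM in mutant root, against 1.42 and 1.51 FPKM in mutant shoot (log2 change 2.55), and YUC3, YUC8 and YUC9 were also higher in root, with changes of 2.46, 1.64 and 2.26. YUC2 had 0.312 and 0.346 FPKM in mutant root, against 1.15 and 0.977 FPKM in mutant shoot, and was not called (log2 change -0.63, limma adjusted p = 0.00084), and YUC1 and YUC4 stayed below 1 FPKM.

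Cytokinin and strigolactone genes were higher in root for 10 of 14 tested and in shoot for 2 (median 1.49), with 7 and 2 after rescaling, which ended the calls of LOG4, MAX1 and CCD8. Here 7 reached 1 FPKM in root alone and 1 in shoot alone, and of the 6 that did so in both tissues 4 were higher in root and 1 in shoot. CYP735A2, which makes trans-zeatin forms, had 17.7 and 18.1 FPKM in mutant root, against 0.0291 and 0.0282 FPKM in mutant shoot (change 4.2 on the log2 scale, SE 0.13, limma adjusted p = 3.1e-07). ABCG14, which exports cytokinin toward the shoot, had 98.01 and 88.3 FPKM in mutant root, against 4.01 and 3.08 FPKM in mutant shoot, and the synthesis gene IPT3 had 13.4 and 15.4 FPKM in mutant root, against 3.204 and 2.74 FPKM in mutant shoot. The activating enzymes split: LOG7 had 42.8 and 46.8 FPKM in mutant root, against 3.52 and 3.403 FPKM in mutant shoot, whereas LOG1 had 2.93 and 3.64 FPKM in mutant root, against 27.7 and 31.9 FPKM in mutant shoot (log2 changes 3.36 and -2.85). D27, a plastid isomerase of strigolactone synthesis in a shared locus, had 0.0783 and 0.0401 FPKM in mutant root, against 4.89 and 5.06 FPKM in mutant shoot.

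Aquaporins, the water channels, included genes of either organ. Of 20 tested 5 (25%) were higher in root and 6 (30%) in shoot, beside 41.8% and 14.1% of all genes. After rescaling the counts were 5 and 11. The median of -0.37 turned to 0.51 under quantile normalization. In this list 3 reached 1 FPKM in root alone, and of the 17 that did so in both tissues 2 were higher in root and 6 in shoot. NLM1 had 105 and 114 FPKM in mutant root, against 0.574 and 0.598 FPKM in mutant shoot (change 6.12 on the log2 scale, SE 0.15, limma adjusted p = 1.9e-07), and the tonoplast channel TIP2;3 had 56.9 and 56.9 FPKM in mutant root, against 0.0544 and 0.02599 FPKM in mutant shoot. TIP4;1 had 74.8 and 66.4 FPKM in mutant root, against 0.557 and 0.299 FPKM in mutant shoot. PIP2E, of the plasma membrane, had 7.34 and 7.89 FPKM in mutant root, against 327 and 306 FPKM in mutant shoot (log2 change -5.2), and DELTA-TIP, in a shared locus, had 71.96 and 70.5 FPKM in mutant root, against 1194 and 1159.9 FPKM in mutant shoot. PIP2A, another plasma membrane channel, had 850.1 and 794 FPKM in mutant root, against 1097 and 997 FPKM in mutant shoot (adjusted p = 0.16), and was called in shoot after rescaling, as was PIP1B.

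**Figure D4:**
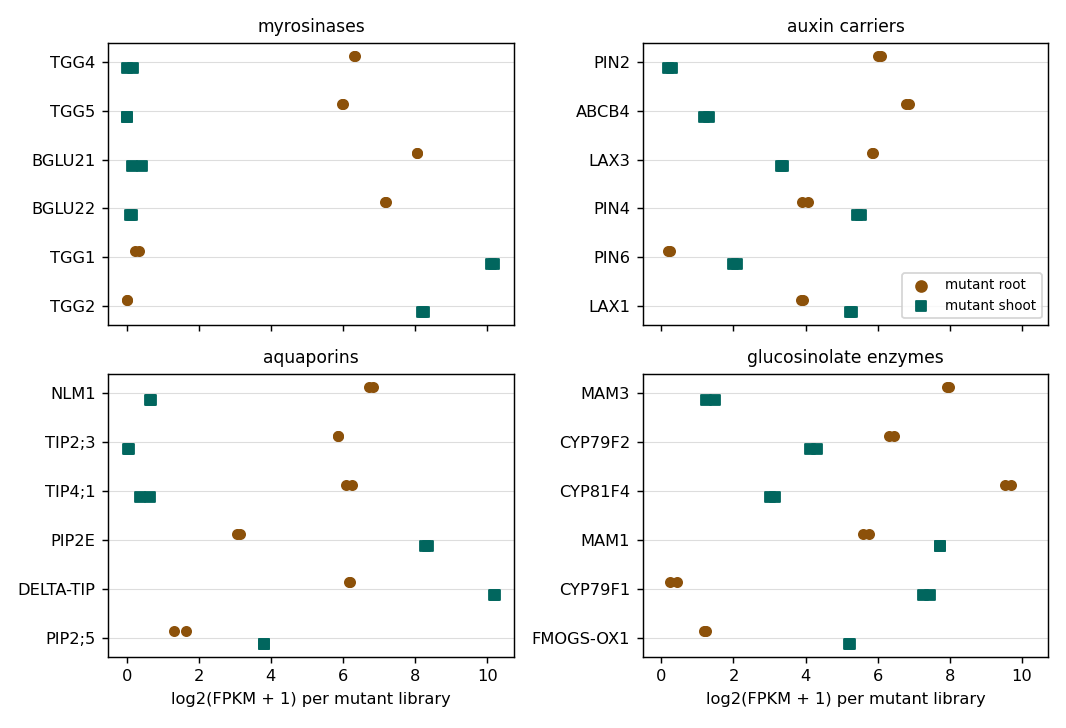
Level of 6 genes in each of 4 groups, chosen after their values were seen (log2(FPKM + 1), x axis), 1 point per library, mutant root as brown circles above mutant shoot as green squares. In every group some members sit above the other tissue by several log2 units and others below it.

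Flavonoid genes were called in both directions. Of 13 tested 7 were higher in root and 4 in shoot, or 5 and 5 after rescaling, with a median of 1.01. The deposited counts are 53.8% and 30.8% of the list, beside 41.8% and 14.1% of all genes. Of these genes 1 reached 1 FPKM in root alone and 4 in shoot alone, and of the 8 that did so in both tissues 6 were higher in root and 1 in shoot. TT4, the chalcone synthase that opens the pathway, had 250.01 and 243 FPKM in mutant root, against 24.6 and 22.5 FPKM in mutant shoot (change 3.34 on the log2 scale, SE 0.18, limma adjusted p = 4.3e-06), and FLS1, a flavonol synthase, had 49.1 and 45.6 FPKM in mutant root, against 4.51 and 5.72 FPKM in mutant shoot. The flavonol regulator MYB12 had 10.97 and 14.3 FPKM in mutant root, against 0.186 and 0.255 FPKM in mutant shoot, and HY5, a light signalling factor, had 36.6 and 35.2 FPKM in mutant root, against 2.47 and 3.77 FPKM in mutant shoot. The anthocyanin regulator PAP1 had 9.402 and 10.1 FPKM and the anthocyanidin synthase gene LDOX had 4.42 and 4.71 FPKM in mutant shoot, and both were at 0 in both mutant roots. DFR, a reductase of the same branch, had 0.154 and 0.0957 FPKM in mutant root, against 4.46 and 4.74 FPKM in mutant shoot.

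Vascular genes were also called in both directions. Of 13 genes 6 (46.2%) were higher in root and 3 (23.1%) in shoot, beside 41.8% and 14.1% of all genes. Their median was 0.82, but only 1 root call and the 3 shoot calls stood after rescaling. SWEET11, a sucrose exporter of phloem parenchyma, had 1.52 and 1.496 FPKM in mutant root, against 95.3 and 87.6 FPKM in mutant shoot (change -5.2 on the log2 scale, SE 0.15, limma adjusted p = 2.6e-07). SUC2, which loads sucrose into companion cells, had 14.99 and 15.3 FPKM in mutant root, against 124 and 115 FPKM in mutant shoot. XCP1, a protease of xylem vessels and the root call that stood, had 83.2 and 90.4 FPKM in mutant root, against 17.3 and 16.8 FPKM in mutant shoot (log2 change 2.28).

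Jasmonate genes were mostly higher in shoot. Jasmonate is a lipid hormone of wounding and defence, and its JAZ repressors are themselves induced by it. Of 25 genes 1 was higher in root and 19 in shoot (median -2.34), or 0 in root and 21 in shoot after rescaling. Of the 25 tested, 2 reached 1 FPKM in shoot alone, and of the 23 that did so in both tissues 1 was higher in root and 17 in shoot. LOX2, the lipoxygenase of leaf jasmonate synthesis, had 0.0128 and 0 FPKM in mutant root, against 131 and 144 FPKM in mutant shoot (change -7.1 on the log2 scale, SE 0.27, limma adjusted p = 7.8e-07). JAZ9 had 2.66 and 2.33 FPKM in mutant root, against 319 and 365 FPKM in mutant shoot (log2 change -6.62), and OPR3, a reductase of the pathway, had 28.8 and 32.3 FPKM in mutant root, against 241 and 256.1 FPKM in mutant shoot. Allene oxide cyclase paralogs divided: AOC1 had 0 and 0.277 FPKM in mutant root, against 78.1 and 101 FPKM in mutant shoot, and AOC2 had 1.79 and 1.58 FPKM in mutant root, against 154 and 179.8 FPKM in mutant shoot, while AOC3 had 88.3 and 107 FPKM in mutant root, against 34.03 and 56.3 FPKM in mutant shoot (change 1.13 on the log2 scale, SE 0.25, adjusted p = 0.0048). AOC genes are close in sequence, and the AOC3 call ended after rescaling, under quantile normalization, without mutant root replicate 2 (log2 change 1.00, just under the threshold) and without mutant shoot replicate 1 (0.78).

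Of the 10 genes often used as expression references, 5 were called higher in root and none in shoot, beside 41.8% and 14.1% of all genes, and their median change was 0.98 beside 0.81 for all genes. Their highest levels were of cytosolic glyceraldehyde phosphate dehydrogenases, of which GAPC1 had 1564 and 1479 FPKM in mutant root, against 339 and 308 FPKM in mutant shoot, and GAPC2 had 1845 and 1675 FPKM in mutant root, against 796 and 733 FPKM in mutant shoot. After rescaling GAPC1 alone was called, at 1.34, and the list median was 0.09.

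Families outside the lists were grouped by symbol after their values were seen. Of 73 genes with a SAUR symbol 53 were tested. Of these 53, 25 (47.2%) were higher in root and 20 (37.7%) in shoot, beside 41.8% and 14.1% of all genes. After rescaling the counts were 15 and 20, where 18.2% and 21.1% of all genes were called. SAUR55 had 96.5 and 82.6 FPKM in mutant root, against 0.377 and 0.576 FPKM in mutant shoot (log2 change 5.94, limma adjusted p = 2.6e-07), and SAUR36 had 19.3 and 17.97 FPKM in mutant root, against 0.103 and 0.217 FPKM in mutant shoot. Toward shoot, SAUR14 had 0.373 and 0.152 FPKM in mutant root, against 20.1 and 16.2 FPKM in mutant shoot, and SAUR16 had 0.335 and 0.447 FPKM in mutant root, against 14.7 and 10.9 FPKM in mutant shoot (log2 changes -3.92 and -3.30). These 2 lie in a tandem cluster of similar genes.

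Transcription factor families are given beside the shares of all genes, 41.8% higher in root and 14.1% in shoot. Their counts too include members at 1 FPKM in 1 tissue alone. Of 18 TCP genes tested none was higher in root and 11 in shoot, or 0 and 14 after rescaling. Of 59 WRKY genes, many of them defence regulators, 36 were higher in root and 5 in shoot, or 28 and 13 after rescaling, led by WRKY65 with 90.1 and 83.2 FPKM in mutant root, against 0.5699 and 0.5502 FPKM in mutant shoot. Of 75 NAC genes 42 were higher in root and 6 in shoot, or 31 and 10 after rescaling. Of 80 MYB genes 45 were higher in root and 13 in shoot, or 37 and 18 after rescaling, and of 21 LBD genes 14 and 2, or 10 and 3.

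Wall and detoxification enzymes are given beside the same shares, 41.8% and 14.1%, and again include members at 1 FPKM in 1 tissue alone. Of 74 listed peroxidase genes 18 were at 0 in both mutant shoots. Class III peroxidases were higher in root for 49 of 60 tested and in shoot for 6 (median 3.95), or 47 and 7 after rescaling. PER69 had 324 and 293 FPKM in mutant root, against 0.476 and 0.0768 FPKM in mutant shoot, whereas PER12 had 12.9 and 15.4 FPKM in mutant root, against 119.5 and 107 FPKM in mutant shoot. Tau glutathione transferases were higher in root for 19 of 25 and in shoot for 4, or 17 and 5 after rescaling, with GSTU25 at 297 and 305 FPKM in mutant root, against 0.299 and 0.0714 FPKM in mutant shoot, though GSTU24 and GSTU25 are close copies. Alpha expansins were split, with 8 of 17 higher in root and 7 in shoot, or 5 and 7 after rescaling: EXPA7 was among the root calls, and EXPA5 had 0 and 0.0623 FPKM in mutant root, against 28.9 and 27.8 FPKM in mutant shoot. Xyloglucan transglucosylases were higher in root for 16 of 27 and in shoot for 8, or 11 and 9 after rescaling. XTH6 had 117 and 108 FPKM in mutant shoot, and was at 0 in both mutant roots, whereas XTH14 had 51.1 and 46.6 FPKM in mutant root and was at 0 in both mutant shoots.

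The tissue change of the mutant was then set against that of Col-0. Over the 20036 genes the 2 changes correlated at r = 0.971, across genes of libraries that share their annotation and processing. These genes were kept by their levels in the mutant, and the same rule in Col-0 kept 19946. In Col-0, 11621 of the 20036 genes (58.0%) were higher in root and 2299 (11.5%) in shoot, 69.5% in all, with a median change of 1.22. No rescaled counts are given for Col-0. Of the mutant's root calls 97.2% were also root calls in Col-0, which is 70.0% of Col-0's, and of the mutant's shoot calls 78.2% were also shoot calls in Col-0, which is 96.0% of Col-0's. No gene was called in opposite directions.

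For the difference itself (mutant change minus Col-0 change) limma called 0 genes (0.0%). The smallest adjusted p was 0.25, while 3101 genes had an unadjusted p under 0.05, of which 236 had a positive and 2865 a negative difference. The median difference was -0.34. Col-0 shoot replicate 1 stood apart in level, with a median FPKM of listed genes of 3.33, against 5.02 in Col-0 shoot replicate 2 and 5.76 and 5.87 in the mutant shoots. Without it 48 genes were called with a positive and 303 with a negative difference, and without Col-0 shoot replicate 2 the counts were 68 and 4698.

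In the jasmonate list, singled out after its values were seen, no gene passed the test of the difference with all libraries. Some of its genes were called lower in the mutant when either Col-0 shoot library was left out, which leaves that group with 1 library. For 24 of 25 genes, beside 79.0% of all genes, the mutant's root minus shoot change was below that of Col-0, with a median difference of -1.37 against -0.34 for all genes, and 21 had an unadjusted p under 0.05. The glucosinolate list had 27 of 35 negative with a median of -0.48 and 20 with an unadjusted p under 0.05, and 0 called with all libraries. Some of its genes were also called lower in those leave-out fits. JAZ10 had 2.25 and 2.72 FPKM in mutant root and 39.8 and 45.8 FPKM in mutant shoot, against 2.77 and 2.11 FPKM in Col-0 root and 8.83 and 11.4 FPKM in Col-0 shoot, a difference of -1.96 (SE 0.27, limma adjusted p = 0.25). OPR3 differed by -1.82 and VSP1, a vegetative storage protein, by -2.02, with the same adjusted p. After rescaling the median difference of the jasmonate list was -0.91 against 0.02 for all genes, with 22 of 25 negative. Without Col-0 shoot replicate 1 the list's median difference was -1.21, against -0.18 for all genes. Leaving out the other Col-0 shoot library, replicate 2, gave -1.51 against -0.48. Rescaling without Col-0 shoot replicate 1 gave -0.98 against 0.003. In each of these fits 24 of 25 were negative.

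**Figure D5:**
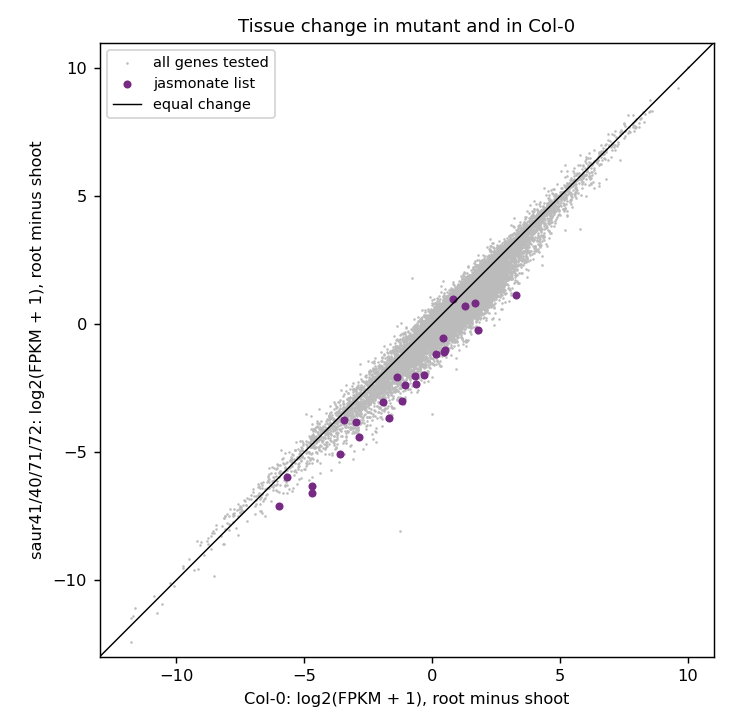
Change between root and shoot on the log2(FPKM + 1) scale in the mutant (y axis) against Col-0 (x axis), 1 grey point per gene, with the 25 jasmonate genes in purple and a line of equal change. The genes lie along the line (r = 0.971 over 20036 genes) and 24 of the 25 jasmonate genes fall below it.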

How the data were processed

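Values were FPKM per gene deposited by the authors for each of the 8 libraries, per the file headers, on the TAIR10 build, per the submitters' processing notes. The sources used here give no aligner, counting tool, library kit or strand. Without counts the depth is unknown, and no counting interval is given. Coordinates are those of the files with 1 added to the start. Symbols came from a RefSeq table matched by locus for 19876 of 20036 members, used for names only.

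From the deposited FPKM, log2(FPKM + 1) was modelled in limma 3.58.1 (R 4.3.3) over 4 groups of 2 libraries with trended, robust moderation and 4 residual degrees of freedom, and p-values were adjusted by Benjamini-Hochberg over all 20036 genes. Calls needed an adjusted p under 0.05 and a 2-fold change. Tables and figures used Python 3.11.15, pandas 2.3.3 and matplotlib 3.10.9, and the fit was tested on simulated data.

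Genes were named by rule. They were the mutated genes and the 12 largest called changes each way with at least 5 FPKM in the higher tissue. For those 12, root and shoot libraries also had to be without overlap. In each list, up to 4 called members with the largest change and up to 3 against the majority were named. Other list members, the families, the most abundant genes and the paralog comparisons were picked after their values were seen. The members and lists were chosen with earlier results of these data known. Alternatives were the pseudocount, the filter, rescaling by median ratios, quantile normalization, removal of a trend with gene span, a replicate block, moderation without trend, other thresholds, the 4 mutant libraries alone and each library left out.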

Additional observations from a re-analysis of the deposited data

How the results depend on the processing

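Scaling and the fold threshold moved the count of root calls by over 1.5 times. With median-ratio rescaling 3639 genes were higher in root and 4228 in shoot, and with quantile normalization 4328 and 3997. Rescaling chosen after seeing the data gave 3699 and 4351 without Col-0 shoot replicate 1, and 3671 and 4358 with only the 4 mutant libraries. A 4-fold threshold left 2809 and 1622. Pseudocounts, filters, moderation and the span trend kept both counts within 1.5 times of 8369 and 2821. Leaving out 1 library in turn gave 7872 to 8420 root calls and 2683 to 2841 shoot calls. An arm left with 1 library was assumed to vary like the other groups.

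For the difference between genotypes, 0 genes were called in either direction, while leaving out 1 library gave 0 to 68 with a higher and 0 to 4698 with a lower change in the mutant. The fits with calls lacked Col-0 shoot replicate 1 (48 and 303), the other Col-0 shoot library, replicate 2 (68 and 4698), or mutant shoot replicate 2 (0 and 2). Rescaling without Col-0 shoot replicate 1 gave 78 and 149. The cause was not tested.

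With the replicate number as a block, 8395 genes were higher in root and 2829 in shoot, and none differed between genotypes. Deviations of same-numbered libraries correlated at 0.12 between mutant root and mutant shoot, at -0.002 between Col-0 root and Col-0 shoot, at 0.042 between mutant root and Col-0 root and at 0.12 between mutant shoot and Col-0 shoot. Not every pair passed 0.1, there are 2 libraries a group, and no label ties the numbers to a shared batch, so they are treated as numbers alone. Of 118 named genes tested, none reversed under any alternative. Rescaling ended 8 calls (SAUR72, AN3, KCR1, GPAT6, AOC3, TIP41, PEX4 and GAPC2) and quantile normalization 5.

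The limits are 2 libraries a group, unknown depth, unlisted genes taken as 0, and a choice of scaling that these files cannot settle.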

Other observations

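Genes that the RefSeq table types as non-coding RNA were also listed. Of 354 such genes 228 reached the FPKM minimum. Of these 228, 86 (37.7%) were higher in mutant root and 18 (7.9%) in mutant shoot, beside 41.8% and 14.1% of all genes. After median-ratio rescaling the counts were 32 and 30, where 18.2% and 21.1% of all genes were called. Genes of the mitochondrial genome took 0.0512% and 0.0575% of FPKM in mutant root, against 0.0243% and 0.0380% in mutant shoot.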
